A study of Mus musculus with 12 samples.

Results

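The nuclear-encoded subunits of respiratory complex I were followed in 12 RNA-seq libraries made from 1 pool of mouse Purkinje cells. The members are the protein-coding genes whose symbol begins with Nduf, then a, b, c, s or v and a digit, with pseudogenes left out. There are 37 of them among the 43346 annotated genes of the deposited tables. The pool held 13 Purkinje cells cut out and homogenised together, from 1 male B6CASTF1/J mouse aged 14 months, a hybrid of Castaneus and C57Bl6. Each library received 1 cell-equivalent of its total RNA longer than 200 bases, with spike-in RNA, in a Smart-seq protocol. The libraries form 1 group with neither treatment nor control, and they are named by their technical replicate numbers, 1 to 6 and 8 to 13. A spread between them is therefore a spread between splits of 1 homogenate, and no value speaks of other animals or of single cells. In such a pool, fewer cells of a type and less RNA per cell cannot be told apart.

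Complex I (NADH:ubiquinone oxidoreductase) is the entry point of the respiratory chain. Its N module oxidises NADH, its Q module passes the electrons to ubiquinone, and its membrane arm pumps protons. The catalytic core comprises 7 nuclear-encoded subunits and the 7 subunits of the mitochondrial genome, and the remaining nuclear subunits are accessory and serve assembly and stability. Purkinje cells, the output neurons of the cerebellar cortex, fire spontaneously at high rates and are known for a high demand for oxidative energy. Levels are given in TPM, each library's transcript shares scaled by transcript length to a fixed total, of which spike-ins are a part.

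The promoters of 4 members are shown because these genes mark the extremes of the data. Ndufa4 had the highest mean level, and Ndufa3 the smallest coefficient of variation (SD over mean) between libraries. Ndufv1 had the lowest mean level above 0 and the largest coefficient of variation. Ndufb4 shares its whole coding sequence with an annotated copy. Each window runs from 250 bases before to 50 bases after the start, on the strand of the gene, from RefSeq on GRCm38.p6. Capitals mark exact matches, on either strand, to NRF-1 (GCGCA, any base, then GCGC), ETS (CCGGAAG) or YY1 (AAGATGGC), the motifs of factors known to act at genes of the respiratory chain.
Ndufa4, chr6:11907401-11907700, minus strand: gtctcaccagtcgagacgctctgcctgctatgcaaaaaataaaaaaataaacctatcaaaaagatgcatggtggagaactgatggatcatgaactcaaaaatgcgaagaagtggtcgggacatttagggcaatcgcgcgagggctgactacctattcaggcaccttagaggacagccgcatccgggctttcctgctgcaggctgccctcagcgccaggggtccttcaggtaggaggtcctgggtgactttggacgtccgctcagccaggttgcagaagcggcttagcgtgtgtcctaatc
Ndufa3, chr7:3617123-3617422, plus strand: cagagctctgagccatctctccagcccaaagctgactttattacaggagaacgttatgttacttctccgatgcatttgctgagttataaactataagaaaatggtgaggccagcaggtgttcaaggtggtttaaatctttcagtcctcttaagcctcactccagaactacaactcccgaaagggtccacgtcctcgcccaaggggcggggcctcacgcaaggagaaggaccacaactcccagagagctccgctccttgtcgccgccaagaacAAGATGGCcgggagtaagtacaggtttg
Ndufv1, chr19:4012706-4013005, minus strand: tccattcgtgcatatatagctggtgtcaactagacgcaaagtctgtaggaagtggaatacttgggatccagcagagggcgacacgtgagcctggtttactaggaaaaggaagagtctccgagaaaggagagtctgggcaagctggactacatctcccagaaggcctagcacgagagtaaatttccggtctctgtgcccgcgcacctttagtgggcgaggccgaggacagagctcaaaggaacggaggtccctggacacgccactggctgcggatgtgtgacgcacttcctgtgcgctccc
Ndufb4, chr16:37654319-37654618, minus strand: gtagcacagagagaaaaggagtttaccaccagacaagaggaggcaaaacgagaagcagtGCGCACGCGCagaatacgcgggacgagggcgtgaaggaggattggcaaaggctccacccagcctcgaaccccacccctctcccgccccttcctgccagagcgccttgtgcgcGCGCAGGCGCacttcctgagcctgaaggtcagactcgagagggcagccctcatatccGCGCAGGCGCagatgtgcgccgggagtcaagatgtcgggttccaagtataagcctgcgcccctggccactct

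The Ndufb4 window held 3 NRF-1 matches, the Ndufa3 window 1 YY1 match, and the Ndufa4 and Ndufv1 windows none of the 3 motifs. RefSeq had windows for 32 members, 34 in all. Among those without an entry were Ndufa2, Ndufa4l2, Ndufb9 and Ndufs1. An NRF-1 match was found in 8 of the 34 member windows (23.5%) and in 4.60% of all 32851 promoter windows. The YY1 motif was found in 7 member windows (20.6%), against 2.75% of all windows. The ETS motif was found in 4 member windows (11.8%), against 8.86% of all. Sp1 letters (GGGCGG) were found in 44.1% of the member windows, against 35.7% of all. Matches of 2 different motifs overlapped 1 time among the members. The member windows had a median GC content of 59.0% and a median of 19.5 CpG, against 52.7% and 7 CpG over all windows, and the part of base composition in these shares was not tested. The 7 members with an NRF-1 match had mean levels of 157 to 1344 TPM, within the range of the 25 members without one, 123 to 3220.1 TPM.

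Of the 37 subunits, 36 had reads in every library, and 35 had an expected count of at least 50 in every library, a mark reached by 3.72% of all annotated genes. The exceptions were Ndufv1, whose lowest count was 45, and Ndufa4l2, which had no read in any library. All 36 measured subunits ranked within the 1000 most abundant genes by mean TPM, between rank 27 and rank 953. Among them, 7 had a mean of 1000 TPM or more, of 97 genes that did so. The summed level of the members was 25814 ± 2834 TPM (SD, n = 12 libraries), and their counts made up 1.48 ± 0.233% of the gene counts.

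**Figure D1:**
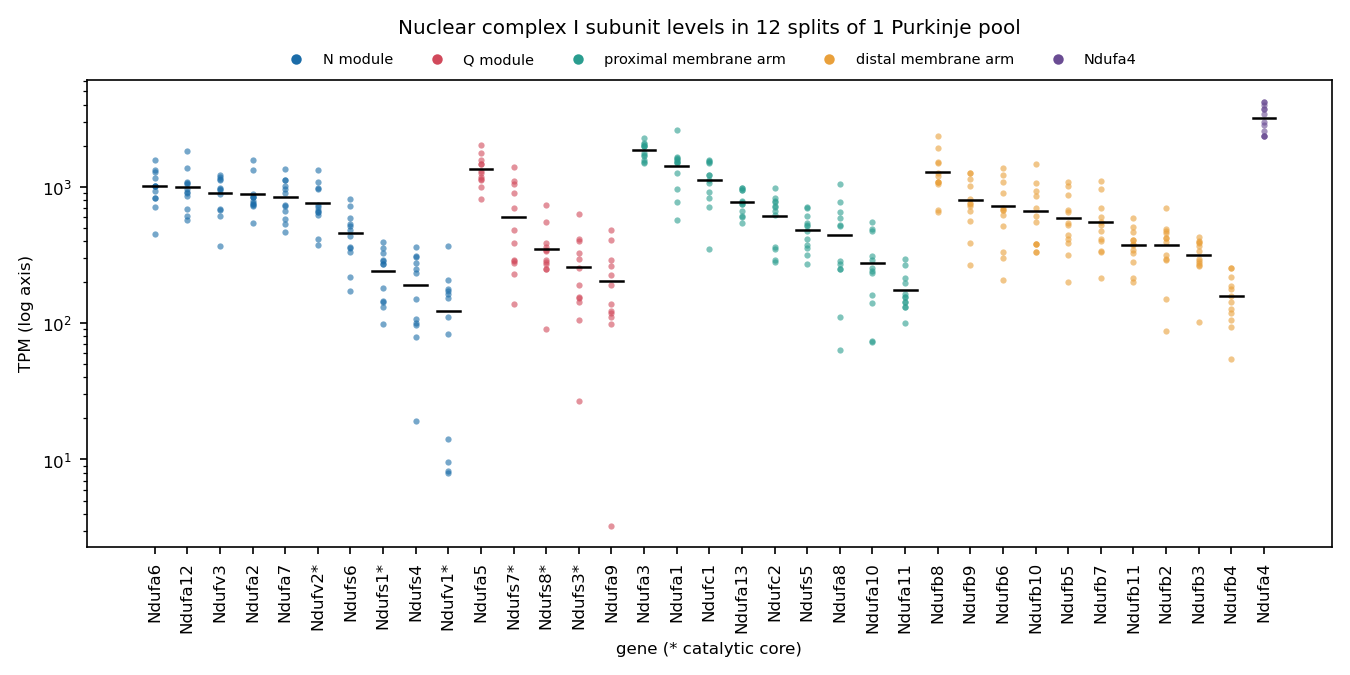
TPM of 35 of the 36 measured nuclear complex I subunits on a log axis, 1 point per library and a bar at the mean of 12 libraries, coloured by module with core subunits starred. Ndufa4 stands highest at a mean of 3220.1 TPM, and Ndufv1 and Ndufa9 reach furthest down, to 7.95 and 3.24 TPM.

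Scaled by length, the catalytic core subunits stood below the accessory ones. The median of the mean levels was 347 TPM over the 7 core subunits (123 to 765 TPM), against 668 TPM over the 29 measured accessory members (157 to 3220.1 TPM). The median core subunit was below the median accessory member in 12 of 12 libraries. In mean CPM, read shares not scaled by length, the medians were 314 for the core subunits and 380.2 for the accessory members, and the core median was below in 10 of 12 libraries. Across the 36 measured members, the length of the leading transcript and the mean TPM had a Spearman correlation of -0.66, while length and mean CPM had one of -0.15. Both are descriptions over genes that share the same libraries.

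Ndufa4 (ENSMUSG00000029632.5, mm10 chromosome 6, 11900292 to 11907497) was the most abundant member. It is named as a complex I subunit and has been assigned to complex IV in human cells. Its lowest, median and highest libraries held 2358, 3196 and 4214 TPM, a range of 1.79-fold. It was lowest in library 1 and highest in library 13. On average it gave 3220.1 ± 726 TPM (SD, n = 12). Its paralog Ndufa4l2 (ENSMUSG00000040280.9, chromosome 10, 127514967 to 127517154), known as a gene induced by hypoxia and as a marker of brain pericytes, had 0 counts in all 12 libraries. With 3 counts per library as the limit that a count of 0 allows, Ndufa4 was at least 9108-fold higher per length in library 5, where the bound was lowest, and at least 31770-fold higher in library 10. No test is given for this pair, and its log difference is given only among the repeats under other settings. With the paralog at 0 throughout, both are set by the pseudocount and by the detection of Ndufa4. The pair was still 1 of the 8 over which the p-values of the pairs were adjusted. The limit covers counting error only. Mural cell markers were near 0 in most libraries. In library 13, Higd1b reached 271 TPM, Vtn 101 TPM and Rgs5 80.9 TPM, with Acta2 at 0. In library 10, Higd1b alone was high, at 158 TPM, with Rgs5 at 0.11 TPM and the other listed markers at 0. Ndufa4l2 had no read in those libraries either.

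The N module, which holds the NADH site, summed to 6415 ± 999 TPM over its 10 genes. Its core subunits differed most within it. Ndufv1 (ENSMUSG00000037916.9, chromosome 19, 4007384 to 4012806) carries the flavin and the NADH site, and its partner Ndufv2 carries an iron-sulfur cluster. Ndufv1 had a lowest, median and highest library of 7.95, 131 and 366 TPM, against 374, 693 and 1324 TPM for Ndufv2. Ndufv1 was below Ndufv2 in 12 of 12 libraries and their ranges did not overlap. The means were 123 ± 108 TPM for Ndufv1 and 765 ± 274 TPM for Ndufv2, a difference of -3.44 ± 2.13 on log2(TPM + 1) (SD, n = 12, exact sign-flip test over libraries, adjusted p = 0.000781 over 8 pairs). Ndufv1 lay at separate levels: libraries 4, 5, 8 and 10 held 7.95, 9.63, 14.1 and 8.21 TPM, and the other 8 held 82.6 to 366 TPM.

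Ndufs1, the largest iron-sulfur subunit, ranged from 99.0 to 390 TPM around a median of 273 TPM. It stood above Ndufv1 in 11 of 12 libraries, library 3 being the exception, with means of 241 ± 97.2 TPM for Ndufs1 and 123 ± 108 TPM for Ndufv1. The difference was 1.74 ± 2.05 on log2(TPM + 1) (exact sign-flip test, adjusted p = 0.0143). It no longer passed without libraries 1, 4 and 13, at 1.75 (same test, adjusted p = 0.0580). Those 3 libraries had the most gene counts per spike-in count. Nor did the difference pass as log2(CPM + 1), at 2.13 (same test, adjusted p = 0.0635). By estimate, the retained-intron model Ndufs1-210 averaged 134 TPM and the protein-coding Ndufs1-201 64.1 TPM. The protein-coding Ndufv1-207, Ndufv1-202 and Ndufv1-201 averaged 51.6, 34.3 and 22.8 TPM. The pair was not tested on protein-coding transcripts alone. Among the accessory subunits, Ndufs4, whose loss causes Leigh syndrome in humans and a fatal encephalopathy in mice, had a lowest, median and highest library of 19.2, 191 and 364 TPM. The zinc-binding Ndufs6 had 172, 460 and 818 TPM. Ndufs4 was below Ndufs6 in 12 of 12 libraries, at means of 191 ± 112 TPM for Ndufs4 and 461 ± 191 TPM for Ndufs6 (difference -1.48 ± 1.37 on log2(TPM + 1), exact sign-flip test, adjusted p = 0.000781). Their ranges overlapped across libraries. As log2(CPM + 1), which is not scaled by length, the difference turned to 0.13 (same test, adjusted p = 0.802). By estimate, Ndufs6-202, a model annotated for nonsense-mediated decay, held 285 TPM of Ndufs6 in library 12. There the protein-coding Ndufs6-201 held 197 TPM, below Ndufs4 at 309 TPM, and it was above Ndufs4 in each other library. Ndufs4 and Ndufs6 were not tested on protein-coding transcripts alone.

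The other N module subunits averaged higher than Ndufv2. Ndufa6, which binds the acyl carrier protein, averaged 1011 TPM (450 to 1582 TPM), Ndufa12 993 TPM (574 to 1831 TPM) and Ndufv3 901 TPM (370 to 1217 TPM). Ndufa2 averaged 883 TPM (541 to 1563 TPM) and Ndufa7 847 TPM (463 to 1355 TPM). Ndufa12 replaces its paralog, the assembly factor Ndufaf2, during assembly. It had a lowest, median and highest library of 574, 938 and 1831 TPM, against 0.33, 91.5 and 212 TPM for Ndufaf2, with no overlap. The means were 993 ± 345 TPM for Ndufa12 and 88.4 ± 73.6 TPM for Ndufaf2, a difference of 4.51 ± 2.65 on log2(TPM + 1), higher in 12 of 12 libraries (exact sign-flip test, adjusted p = 0.000781).

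The Q module summed to 3174 ± 671 TPM over its 6 genes. Of this sum, the accessory Ndufa5 alone gave 1344 ± 336 TPM (818, 1291 and 2019 TPM in its lowest, median and highest libraries). By estimate, 87.6% of Ndufa5 was Ndufa5-204, annotated as a processed transcript and not as protein coding. The protein-coding Ndufa5-202 and Ndufa5-201 averaged 86.6 and 67.5 TPM. The core subunit Ndufs7 lines part of the ubiquinone pocket, Ndufs8 carries iron-sulfur clusters and Ndufs3 is a structural core subunit. Ndufs3 had 26.8, 221 and 634 TPM in its lowest, median and highest libraries. Ndufs7 had 138, 437 and 1399 TPM, against 90.2, 315 and 734 TPM for Ndufs8. Ndufs7 was above Ndufs8 in 8 libraries and below it in 4, and the difference of 0.61 ± 1.26 did not pass (exact sign-flip test, adjusted p = 0.108). It stood at 0.75 without library 6 (adjusted p = 0.0413), at 0.31 without library 3 (adjusted p = 0.192) and at 0.22 as log2(CPM + 1) (adjusted p = 0.732). Ndufa9, which sits where the Q module meets the membrane arm, averaged 204 TPM and spanned 3.24 TPM in library 11 to 484 TPM in library 6. It had 63 counts in library 11 and a mean of 4882 counts.

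The proximal membrane arm summed to 7171 ± 1148 TPM over its 9 accessory subunits. Ndufa3 averaged 1849 ± 256 TPM, with 1505, 1883 and 2295 TPM in its lowest, median and highest libraries. Ndufa1 averaged 1428 ± 519 TPM, with 573, 1520 and 2609 TPM. Ndufa3 was thus nearly level across libraries while Ndufa1, at a like mean, spanned 4.55-fold. Ndufc1 had 351, 1167 and 1563 TPM, against 282, 687 and 972 TPM for Ndufc2. Both are small membrane subunits, and Ndufc1 was above Ndufc2 in 12 of 12 libraries, at means of 1129 ± 378 TPM for Ndufc1 and 613 ± 234 TPM for Ndufc2 (difference 0.90 ± 0.71 on log2(TPM + 1), exact sign-flip test, adjusted p = 0.000781). As log2(CPM + 1), which is not scaled by length, the direction turned, to -0.32 (adjusted p = 0.241). By estimate, the protein-coding transcripts of Ndufc1 averaged 592 and 3.7 TPM. Its retained-intron model averaged 338 TPM and its processed transcript, not annotated as protein coding, 194 TPM. The transcripts of Ndufc2, both protein coding, averaged 594 and 18.1 TPM. The higher level of Ndufc1 thus included much TPM in models that are not protein coding. Ndufc1 and Ndufc2 were not tested on protein-coding transcripts alone. Ndufa13, also known as Grim19, averaged 775 TPM (543 to 975 TPM), Ndufs5 484 TPM (270 to 714 TPM), Ndufa8 444 TPM (63.7 to 1042 TPM) and Ndufa10 274 TPM (72.8 to 554 TPM). Ndufa11, the lowest of this arm, averaged 175 ± 58.4 TPM, with 100.4, 156 and 297 TPM in its lowest, median and highest libraries.

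The distal membrane arm summed to 5834 ± 871 TPM over 10 genes, all of the Ndufb series, which surround the outer proton pumps. Ndufb8 led with 1282 TPM (650.0 to 2357 TPM). Ndufb9 averaged 800 TPM (267 to 1268 TPM), Ndufb6 717 TPM (208 to 1382 TPM), Ndufb10 668 TPM (331 to 1481 TPM), Ndufb5 593 TPM (201 to 1084 TPM) and Ndufb7 549 TPM (213 to 1093 TPM). Ndufb11 averaged 376 TPM (202 to 590 TPM), Ndufb2 375 TPM (88.0 to 703 TPM) and Ndufb3 317 TPM (102 to 427 TPM). The lowest was Ndufb4, at 157 ± 63.0 TPM (54.2, 150 and 254 TPM in its lowest, median and highest libraries), and reads shared with a copy bear on that value.

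Ndufb4 has an intronless copy, Ndufb4c, annotated as a processed pseudogene on chromosome 15 and so no member. The copy matches all 390 coding bases of Ndufb4 with 0 mismatches. Within the Ndufb4-201 transcript, only the 581 bases outside that stretch tell them apart. Ndufb4 also has a retained-intron model, Ndufb4-202 (465 bases), which was not aligned with the copy. By estimate, Ndufb4-202 held 76.5 ± 11.6% of the gene's TPM and led in 11 libraries, and Ndufb4-201 averaged 32.5 TPM. The first 90 coding bases of Ndufb4-201 and Ndufb4c-201 are shown because nothing in them separates the genes.
Ndufb4-201: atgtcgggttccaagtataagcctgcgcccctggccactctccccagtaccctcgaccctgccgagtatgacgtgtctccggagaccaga
Ndufb4c-201: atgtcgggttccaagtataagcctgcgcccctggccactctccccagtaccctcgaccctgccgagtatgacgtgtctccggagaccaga

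By estimate, Ndufb4 held 54.2 to 254 TPM and Ndufb4c 294 to 1633 TPM. The copy was assigned more than the gene in 12 of 12 libraries. The gene's share of their summed TPM was 15.1 ± 1.65% (12.6 to 18.1%), so the split varied little while the sum ran from 348 to 1887 TPM, with a mean of 1059 ± 450 TPM. The levels of Ndufb4 and of the copy are therefore uncertain, since the expected counts divide shared reads by estimate. All 390 bases of the copy match Ndufb4, so no base of its own shows that the copy is transcribed. The posterior SD of the Ndufb4 count, the estimation error given with the counts, was 15.2 to 26.9 on 557 to 2337 counts. It takes the transcript models as given.

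Ndufs5 and Ndufa12 also have copies that held over 10% of their level, each with 2 mismatches in the aligned coding sequence. Those of Ndufs5 and its processed pseudogene BC002163 (chromosome 16) are T81C and A105G, counted from 1 at the first coding base with the base of Ndufs5 first. They are shown in capitals within coding bases 56 to 130.
Ndufs5-201: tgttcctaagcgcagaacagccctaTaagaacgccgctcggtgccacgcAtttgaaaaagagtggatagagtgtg
BC002163-201: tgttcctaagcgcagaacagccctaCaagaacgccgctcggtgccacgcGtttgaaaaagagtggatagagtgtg

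BC002163 had a mean of 278 TPM, from 3.73 TPM in library 1 to 866 TPM in library 2, against a mean of 484 TPM for Ndufs5. The copy was above Ndufs5 in 2 of 12 libraries, and the share of Ndufs5 in their sum ran from 38.5 to 99.0%. For Ndufa12 and its copy Gm15920 (chromosome 5), which differ at A147G and T426C, the gene held 85.8 ± 4.54% of the sum. In all, 13 copies with at least 90% identity over 200 bases or more had rows in the tables. Ndufb4c was the only one of them with a higher mean than its member, and after these 3 the next highest was Gm12251, a copy of Ndufs3, at 4.02 TPM. Exons of 16 members also overlap another gene, mostly on the opposite strand. Whether counting used strand is not given in the sources used here. The longest overlap was 616 bases of Ndufb5 with Mrpl47, a mitochondrial ribosomal protein gene at a mean of 47.8 TPM.

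**Figure D2:**
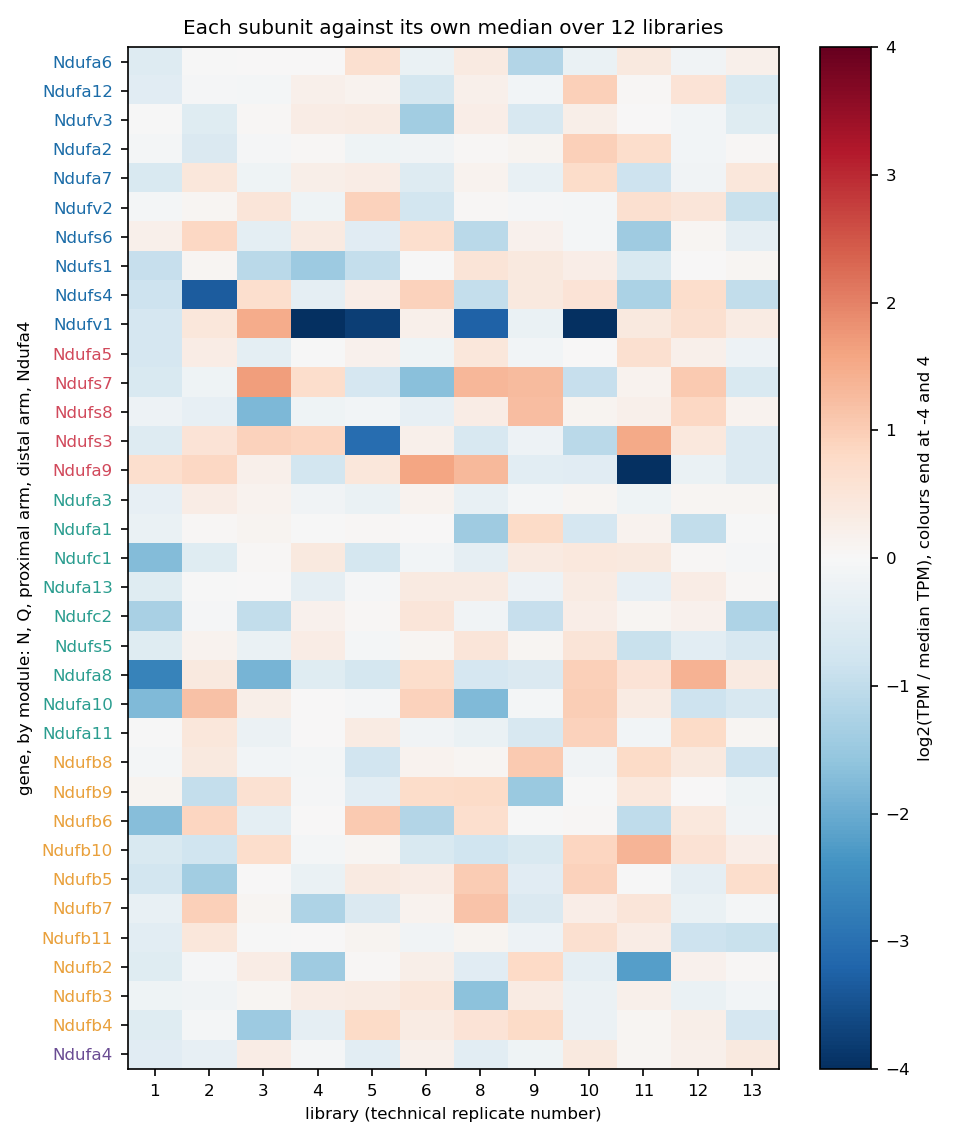
Heat map of log2(TPM divided by the gene's median over 12 libraries) for 35 of the 36 measured subunits, genes as rows by module and libraries as columns. The dark blue cells are single low values, among them Ndufv1 in libraries 4, 5, 8 and 10, Ndufa9 in library 11 and Ndufs4 in library 2.

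Low values came singly, gene by gene, and not as whole libraries. Of the 432 values of the measured members, 9 were more than 5-fold below the gene's own median and 0 were more than 5-fold above it. They fell in 6 genes and 7 libraries, with at most 2 in a library: 4 of them were Ndufv1, and among the others were Ndufa8 in library 1, Ndufs3 in library 5, Ndufa9 in library 11 and Ndufs4 in library 2. Ndufa9 went furthest, 50.5-fold below its median. Such values made up 2.08% of the members' values, against 13.9% of those of the 2554 genes with mean counts in the members' range, 1423 to 24667. Every library was within 2-fold of the median for 11 of the 36 measured members (30.6%), against 4.82% of those genes. Those genes were matched on counts and not on TPM, and some had lower TPM than any measured member. Acad9, for example, had a mean of 1518 counts and 18.3 TPM. The part of TPM in these contrasts was not tested.

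The spread between libraries was larger than read sampling for each of the 36 measured members (chi-square test, adjusted over 13899 genes), as it was for 99.9% of the genes tested. With the counts thinned to 1% of those of the shallowest library, it was for 34 of the 36 members and for 99.8% of the 4931 genes tested. Set against the trend for genes of like read counts, 0 of the 36 were called more variable (edgeR quasi-likelihood fit, upper-tail F test, adjusted p under 0.05). Of all genes, 0.0935% were called, 13 of 13899. The members' share is near that background and says nothing particular of them. At an unadjusted p under 0.05, 0 members and 115 genes passed, and DESeq2 called 0 dispersion outliers among all 13899 genes, the members included. Ndufv1 came nearest, with a dispersion 2.11 times the trend and an unadjusted p of 0.0507. Below the trend of 1 lay 30 of the 36 members (83.3%), against 56.1% of genes in the same range of counts, and the members' median ratio to the trend was 0.48, against 0.91. The coefficient of variation (SD over mean) had a median of 0.39 over the members, against 0.77 over those genes. Those genes were matched on counts and not on TPM. Among the members, the coefficient ran from 0.14 for Ndufa3 and 0.20 for Ndufa13 to 0.88 for Ndufv1. It was lower in members of higher level (Spearman -0.59 with mean TPM across 36 genes, a description). For the listed genes of complexes III, IV and V, the median coefficient of variation was 0.34, 0.32 and 0.36, and for complex II 0.74. A low spread was thus not particular to complex I.

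**Figure D3:**
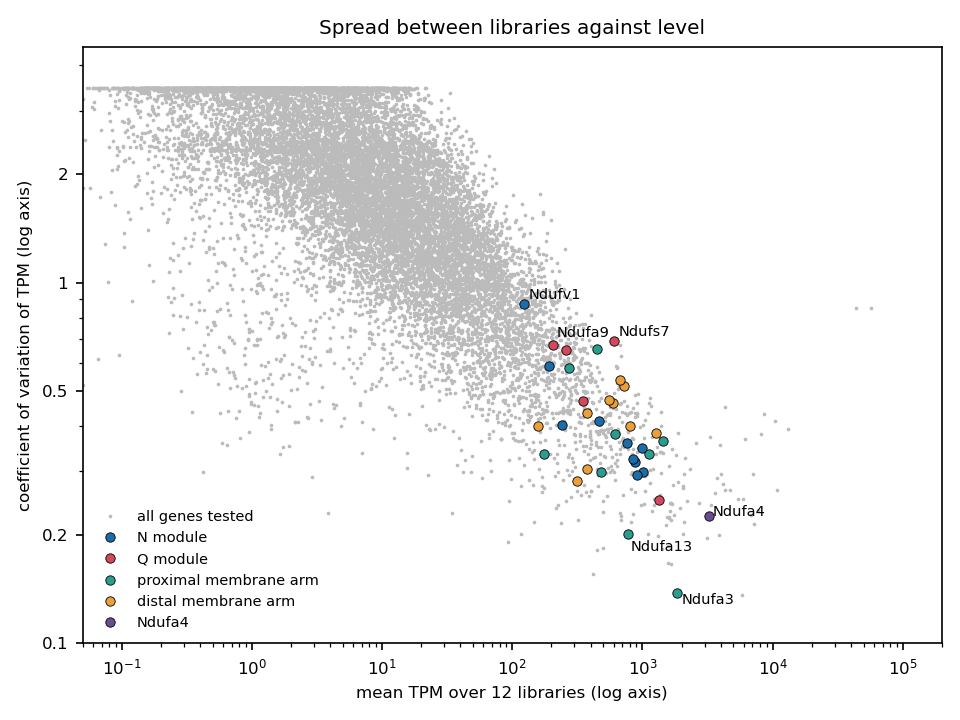
Coefficient of variation of TPM over 12 libraries against mean TPM, both on log axes, for all genes tested in grey and 35 of the measured complex I subunits in colour. The subunits lie in the lower part of the cloud at their level, with Ndufa3 at 0.14 and Ndufv1 at 0.88.

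The order of the subunits by level was alike between libraries. The Spearman correlation between 2 libraries over the 36 measured members had a median of 0.73 over 66 pairs of libraries (0.53 to 0.85). Between 2 members, the Spearman correlations over the libraries had a median of 0.06 over 630 pairs, with quartiles of -0.15 and 0.27. The 7 mitochondrially encoded subunits had a median of 0.45 over 21 pairs. All these correlations rest on the same 12 libraries and are descriptions.

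The ratio of the mitochondrially encoded subunits to the summed nuclear ones was highest in 3 libraries. The mt-Nd genes summed to 13603 ± 3595 TPM, led by mt-Nd1 at 5922 TPM with mt-Nd4l lowest at 56.6 TPM. Per library, they stood at 0.75 times the nuclear sum in library 1, 0.75 times in library 4 and 0.92 times in library 13, against 0.35 to 0.56 times in the other 9. The same 3 libraries had the lowest nuclear sums, 18581 to 24530 TPM against 25000.2 to 29840.3 TPM in the other 9. They had 15.3 to 19.9 gene counts per spike-in count, against 5.86 to 9.83. With TPM rescaled to annotated genes without mitochondrial genes and Malat1, a nuclear noncoding RNA, the nuclear sum was 27183 to 33016 TPM in the 3 libraries and 33878 to 41037 TPM in the other 9. Rescaled to all annotated genes, the mt-Nd sum was 20518 TPM in library 4 and 24464 TPM in library 13, while library 1, at 15108 TPM, lay within the 12879 to 17296 TPM of the other 9. Purkinje cell markers, all 6 with reads in every library, summed to 17210 to 19373 TPM in the 3 libraries, against 19492 to 31071 TPM in the other 9. Bergmann glia and astrocyte markers, 5 of 5 with reads in each of the 3 libraries and 4 of 5 in each of the other 9, summed to 1108 to 3099 TPM and 995 to 2023 TPM, with libraries 13 and 4 the highest. Mural cell markers summed to 0 to 459 TPM, highest in library 13, against 0 to 158 TPM, with Acta2 at 0 throughout. The 158 TPM, in library 10, was nearly all Higd1b. The part of these cells in the sums was not tested. The 3 libraries were singled out by their own values, so no comparison was tested, and neither was the part of the spike-in share in the sums. Without them the nuclear sum averaged 26923 ± 1625 TPM (SD, n = 9).

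**Figure D4:**
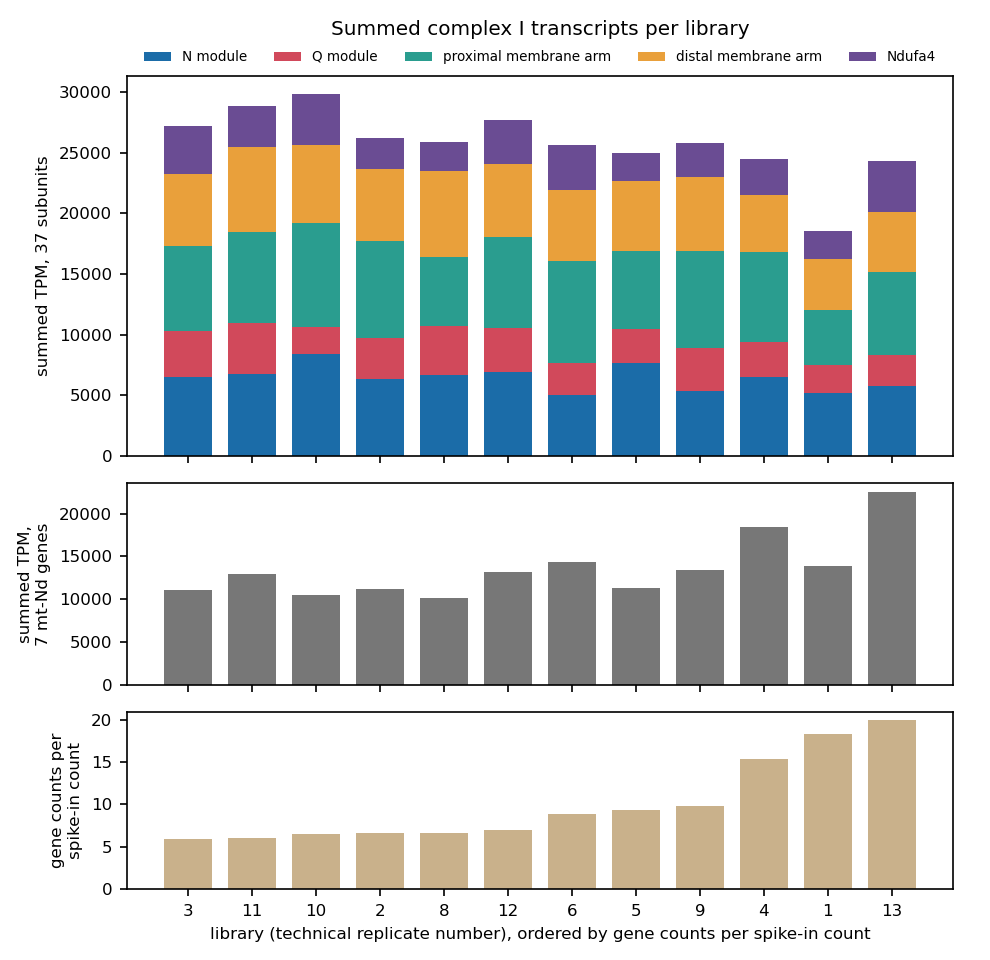
Summed TPM of the 37 nuclear subunits stacked by module (top), summed TPM of the 7 mt-Nd genes (middle) and gene counts per spike-in count (bottom), with the 12 libraries ordered by the last. Libraries 4, 1 and 13, at the right, have the lowest nuclear sums and mt-Nd sums of 0.75 to 0.92 times the nuclear sum.

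Beside the subunits, the acyl carrier protein Ndufab1, a shared part of complex I and of mitochondrial fatty acid synthesis whose symbol falls outside the naming rule, averaged 873 ± 380 TPM. The 17 assembly factors, which build the complex without staying in it, were sparse: 5 had a read in every library and 0 had 50 counts in every library. Their means ran from 2.36 TPM for Foxred1 to 118 TPM for Ndufaf3, with a median of 30.0 TPM, against 593 TPM over the 37 subunits. Complex II (4 genes) ran from Sdhc at 121 TPM to Sdhb at 569 TPM, and the listed subunits of complex III (9 genes) from Uqcrfs1 at 160 TPM to Uqcrq at 1817 TPM. Those of complex IV (10 genes) ran from Cox8a at 708 TPM to Cox6c at 1708 TPM, and those of complex V (15 genes) from Atp5g2 at 206 TPM to Atp5b at 2581 TPM. The median of the mean levels was 593 TPM for the complex I members, against 172 TPM for complex II, 1447 TPM for complex III, 1098 TPM for complex IV and 1044 TPM for complex V. All listed genes of complexes III, IV and V, and 3 of 4 of complex II, had at least 50 counts in every library. Detection at that mark was thus not particular to complex I.

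Estimated transcripts split the members into steady and unsteady ones. Of the 36 measured members, 13 have 1 annotated transcript in the tables and 23 have more. In 16 of these 23 the same transcript led in every library. In 13 of the 23 it held over 90% of the gene's TPM on average. Ndufv3 is known in mammals for a short and a long product, the long one containing an extra exon. Its short transcript Ndufv3-202 (485 bases) held 97.4 ± 3.72% of the gene's TPM and led in all 12 libraries, with 88.4% in library 9 as its lowest. The long Ndufv3-201 (1537 bases) reached 11.1% in library 9, 6.48% in library 1 and 4.84% in library 11.

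**Figure D5:**
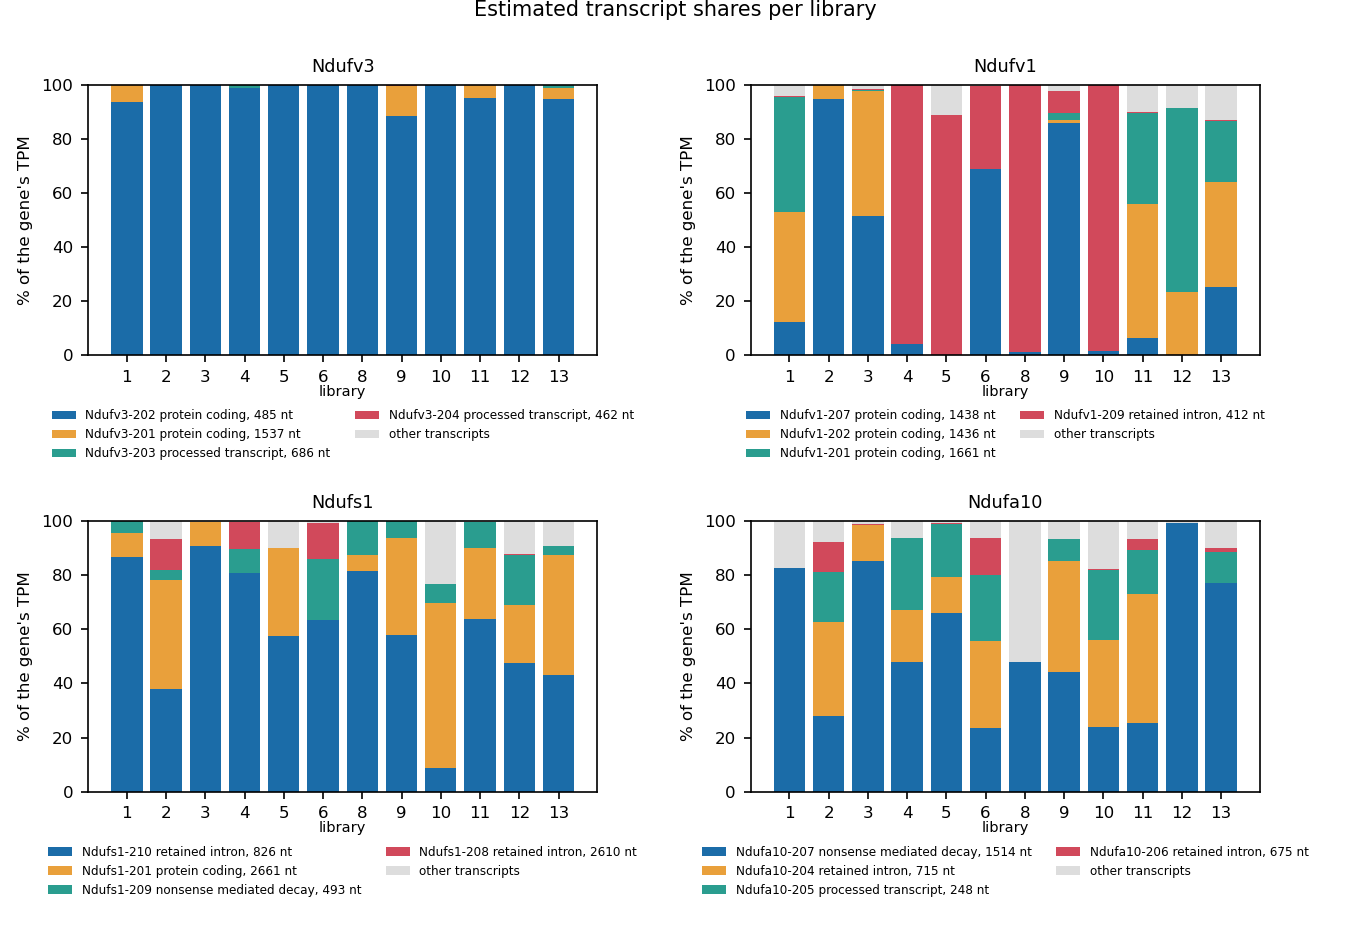
Percent of each gene's TPM held by its 4 leading transcripts, stacked per library, for Ndufv3, Ndufv1, Ndufs1 and Ndufa10, with type and length of each transcript in the legends. Ndufv3-202 leads throughout at 88.4% or more, while Ndufv1-209, a retained-intron model, leads Ndufv1 in libraries 4, 5, 8 and 10.

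The leading transcript changed between libraries in 7 members, among them Ndufa10, Ndufb4, Ndufb5, Ndufs1, Ndufs6 and Ndufv1. For 5 members the transcript with the highest mean was no protein-coding model, among them Ndufa10, Ndufa5, Ndufb4 and Ndufs1. In the 4 libraries where Ndufv1 was low, 88.9 to 98.8% of what remained was Ndufv1-209, a retained-intron model of 412 bases, and protein-coding transcripts led in the other 8. Ndufs1-210, a retained-intron model of 826 bases, averaged 60.0% of Ndufs1, and the full-length Ndufs1-201 (2661 bases) 23.8%. Ndufa10-207, a model of 1514 bases annotated for nonsense-mediated decay, averaged 54.2% of Ndufa10, from 23.3 to 99.4%, and led in 7 libraries. The retained-intron model Ndufa10-204 led Ndufa10 in 4. These shares are estimates from reads that several transcripts share.

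The labelled cell type was checked against its markers. All 6 Purkinje cell markers were detected, summing to 17210 to 31071 TPM per library. Bergmann glia and astrocyte markers summed to 995 to 3099 TPM, red blood cell markers to 362 to 1530.0 TPM, granule cell markers to 51.2 to 419 TPM and oligodendrocyte markers to 1.78 to 315 TPM. Microglial markers summed to 0 to 446 TPM, mural cell markers to 0 to 459 TPM and endothelial markers to 0 to 108 TPM, with Acta2 and Cldn5 at 0 in every library. Complex I subunits are expressed in all nucleated cells, and the part of these other cells in the subunits' levels was not tested. Total expected counts ran from 15167444 to 27806010 per library, of which annotated genes took 13694551 to 24108916.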

How the data were processed

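Per the text files deposited with the samples, reads were quantified on mm10 with GENCODE M4. Which aligner and quantification program were used is not given in the sources used here. Per the file headers, the deposited tables hold expected counts, estimated read numbers in which shared reads are divided, and TPM, which the authors computed over all features, spike-ins included. Symbols came from GENCODE M21 on the same build (42462 of 43346 identifiers matched). The replicates are technical splits of 1 homogenate, so p-values measure technical spread alone.

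Expected counts were rounded before count tests, and genes under a mean count of 5 were left out of them. edgeR 4.0.16 (TMM, intercept-only quasi-likelihood fit) tested each gene's dispersion against the abundance trend, and a chi-square test compared counts with Poisson sampling. The 8 pairs were compared on log2(TPM + 1) by exact two-sided sign-flip tests over 4096 patterns. P-values were adjusted by Benjamini-Hochberg at 0.05. DESeq2 1.42.0 was an alternative. The scripts were tested on simulated data. Copies were sought with blastn 2.17.0 among M21 transcripts. The members, modules, lists and pairs were chosen with earlier results of these data known. Named library by library are the 4 highest and 4 lowest members and every pair, except that 1 member and its pair are not reported here; of other lists, the highest and the lowest. Other values are named for what they show, and were picked after they were seen. The PCR reads have no molecular identifiers, so limits cover counting error only.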

Additional observations from a re-analysis of the deposited data

How the results depend on the processing

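Of 184 repeats of the results under other settings, 174 kept the direction and the side of the threshold or the value. Among the 174 were 16 repeats of Ndufa4 against Ndufa4l2, which is at 0 throughout. Another 15 were of the comparison with Poisson sampling, which called 99.9% of the genes tested. A further 18 were of the comparison with the abundance trend, which called 0.0935% of the genes tested in the main setting. The outcome of all these repeats was all but fixed in advance, so they say little of how firm the results are. Leaving out each library in turn moved the summed level between 25448 and 26472 TPM and the Ndufv3-202 share between 97.2 and 98.2%. It kept 0 members beyond the trend and 36 beyond Poisson sampling. The pair differences on log2(TPM + 1) ran from 11.58 to 11.66 for Ndufa4 and Ndufa4l2 (14.94 with a pseudocount of 0.1, which sets this difference since Ndufa4l2 is at 0), from -3.65 to -3.12 for Ndufv1 and Ndufv2, and from 1.43 to 2.03 for Ndufs1 and Ndufv1. They ran from 0.31 to 0.75 for Ndufs7 and Ndufs8, with adjusted p = 0.0413 without library 6. They ran from 0.79 to 0.98 for Ndufc1 and Ndufc2, from -1.60 to -1.13 for Ndufs4 and Ndufs6, and from 4.03 to 4.74 for Ndufa12 and Ndufaf2. The summed level was 31407 TPM over annotated genes alone, 35566 TPM also without mitochondrial genes and Malat1, 22594 TPM without Ndufa4 and 14792 as CPM, each by construction. As log2(CPM + 1), which ignores length, Ndufc1 against Ndufc2 turned to -0.32 (adjusted p = 0.241), Ndufs4 against Ndufs6 turned to 0.13 (adjusted p = 0.802), and Ndufs1 against Ndufv1 at 2.13 no longer passed (adjusted p = 0.0635). The Ndufv3-202 share was 92.7% of expected counts. Without the 3 libraries with over 10 gene counts per spike-in count, a choice made after seeing the data, Ndufs1 against Ndufv1 stood at 1.75 (adjusted p = 0.0580). With edgeR's legacy method 2 genes were called in place of 13, and 4 at a mean count of at least 50, with 0 members each time. Counts of at least 1 in every library were met by 36 members. The cause of these changes was not tested. Genes were paired within each library, but no pairing of samples between groups was possible because there is 1 group.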
